A study of Mus musculus with 12 samples.

Results

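The comparison set the adrenal medullae of 3 germ-free mice (animals 10, 11 and 12) against those of 3 colonized mice (animals 4, 5 and 6), all taken 90 min after an injection of insulin. These are 6 of the 12 arrays of the series, and every gene with a named probe set was compared, 19505 in all. All mice were male C57Bl6. Germ-free mice carry no microbes, and colonized mice carried a normal flora. Each animal was fasted for 3 h with free access to water, received human insulin (Humulin, 2 IU/kg, intraperitoneally), and gave 1 array of total RNA from dissected medullae. The same contrast in 3 germ-free (animals 7, 8 and 9) and 3 colonized mice (animals 1, 2 and 3) given saline instead shares no array with it and is set beside it below. Values are log2 probe set values, differences are germ-free minus colonized with the standard error of the fit, and a gene was called at a limma adjusted p under 0.05.

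The adrenal medulla is made of chromaffin cells, neural crest derivatives that store adrenaline and noradrenaline in dense granules together with granins and peptides. When insulin lowers blood glucose, splanchnic nerve fibres release acetylcholine and the peptide PACAP onto these cells, calcium enters, granules fuse with the membrane and the released adrenaline helps to restore glucose. The same signals raise cyclic AMP and switch on early transcription factor genes and genes that refill the stores. The gland lies in fat, with adrenal cortex all around the medulla, so a dissected piece can hold cells of either. In bulk tissue such as this, fewer cells of a type and less RNA per cell cannot be told apart.

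Before the genes, the arrays themselves need describing. Across all genes the 3 germ-free insulin arrays correlated with each other at r = 0.990 to 0.993, the 3 colonized insulin arrays at 0.987 to 0.993, and pairs across the groups at 0.972 to 0.983. The median of the 5222 negative control rows lay at 5.30 to 5.54 in germ-free insulin arrays and at 4.74 to 4.76 in colonized insulin arrays, and likewise at 5.36 to 5.46 in germ-free saline and 4.70 to 4.83 in colonized saline arrays. This higher floor followed colonization without overlap, so it cannot be told apart from the germ-free state. Differences of genes near the floor are not exact, and its bearing on brighter genes was not tested. The first limit applies to every level given below that lies under 7.71, the 95th percentile of the negative control means. Markers of the adrenal cortex, the neighbouring tissue, averaged 12.07 ± 0.04 (SD, n = 3) in germ-free and 11.92 ± 0.03 in colonized insulin arrays, without overlap. None of the 12 measured cortex markers was called by limma (2 at an unadjusted p under 0.05), and their median difference was 0.02. Chromaffin markers were high in all 6 arrays, as the tissue label says, with means of 9.98, 9.66 and 9.47 in germ-free animals 10, 11 and 12 and of 10.93, 10.71 and 10.39 in colonized animals 4, 5 and 6. General adipocyte markers averaged 10.09, 10.23 and 10.52 in the same germ-free animals and 6.92, 7.40 and 9.05 in the colonized ones. Colonized animal 6 thus had the lowest chromaffin and the highest adipocyte level of its group, and germ-free animal 12 the same within the germ-free group.

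**Figure D1:**
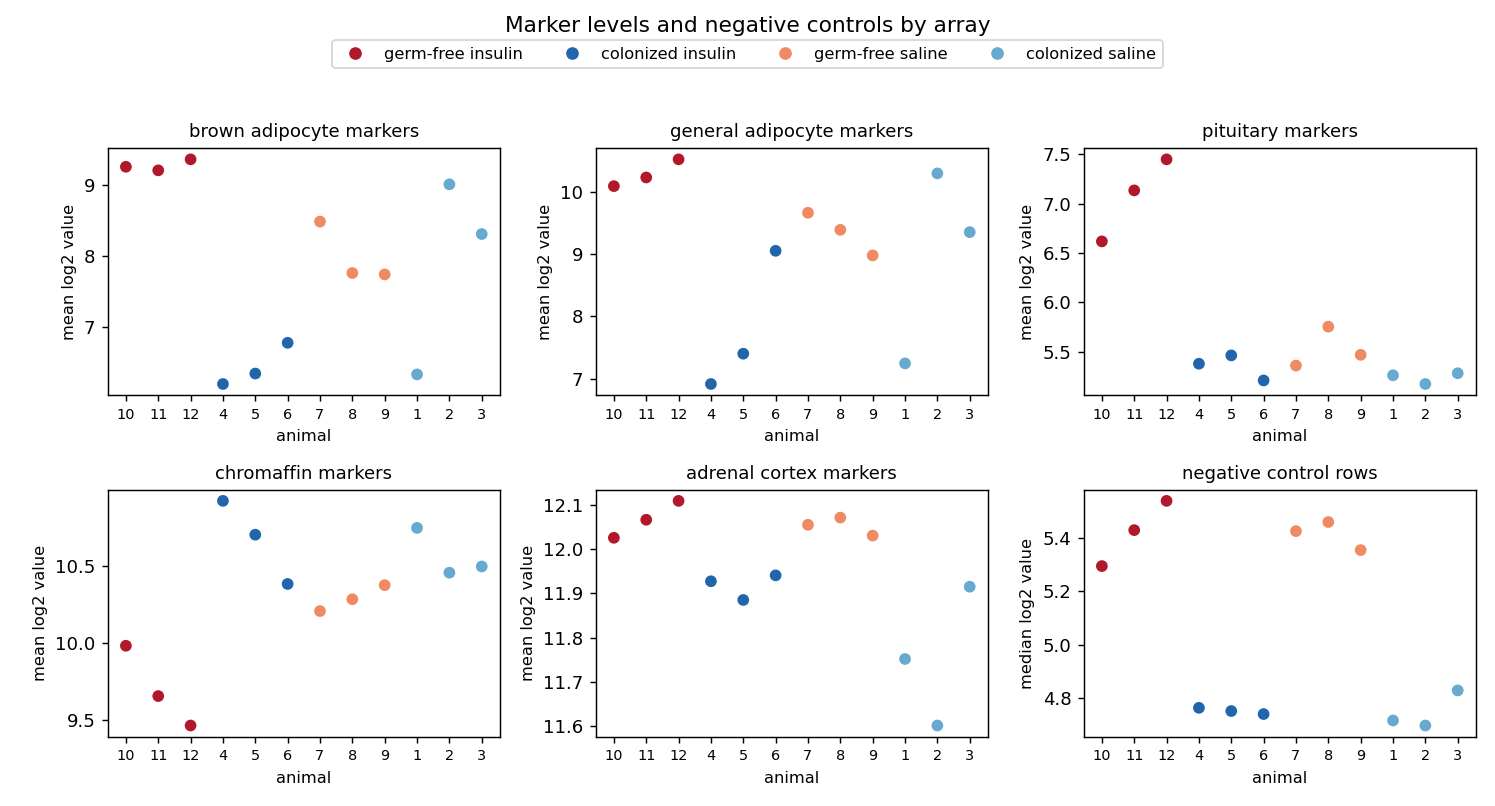
Mean log2 value of the markers of 5 cell types and median log2 value of the negative control rows (vertical axes) on each of the 12 arrays, named by animal along the horizontal axis and coloured by group. After insulin the germ-free arrays lie above the colonized arrays for adipocyte and pituitary markers and below them for chromaffin markers, and the negative controls are higher in all germ-free arrays.

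After insulin, 507 genes were higher in germ-free than in colonized medullae (2.6% of the genes tested) and 1005 were lower (5.15%), 7.75% in either direction. These shares are the background for the list counts after insulin below. In a fit of all rows, 1587 of the 5222 negative control rows (30.4%) were called higher and 8 lower, so upward calls were more frequent among them than among genes. At an unadjusted p under 0.05 there were 4379 genes. At least 1 log2 unit apart were 134 of the genes called higher and 225 of those called lower, and at least 2 units apart were 34 and 2. The median called difference was 0.68 upward and -0.69 downward, against a median of -0.03 over all genes. The 6 arrays separated into their groups for 31.9% of all genes, for 507 of the 507 genes called higher and for 1000 of the 1005 called lower. Colonized animal 6 was the colonized array nearest to the germ-free ones for 54.8% of the genes called higher and 57.4% of those called lower.

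These counts depended on the centring, on single arrays and on the marker levels above. With each array centred on its median, 677 genes were higher and 652 lower after insulin, so the excess of lower genes was not kept, and after saline 760 were higher and 428 lower. Leaving out one of the 6 insulin arrays gave between 133 higher and 317 lower genes (without germ-free animal 12) and 509 higher and 920 lower genes (without colonized animal 6), with 155 and 319 without colonized animal 4, 207 and 489 without colonized animal 5, 338 and 635 without germ-free animal 10, and 151 and 369 without germ-free animal 11. Leaving out colonized saline animal 2, which enters only through the shared spread, gave 912 and 1929. With the mean of the general adipocyte markers as a covariate 9 genes were higher and 27 lower, and with the chromaffin marker mean 1 was higher and 0 were lower (1289 at an unadjusted p under 0.05). With the negative control median, a covariate chosen after the data were seen, 0 genes were called in either direction (900 at an unadjusted p under 0.05). Each of these 3 quantities separates the insulin groups without overlap, so such a fit cannot tell its part from that of colonization. The adrenal cortex marker mean separates them as well. With it as covariate 365 genes were higher and 930 lower after insulin, and 0 in either direction after saline. Why the covariates differ in this, and their part in the results below, was not otherwise tested. Calls given below as kept with the adipocyte covariate were all lost with the negative control covariate. With the chromaffin covariate all of them but that of Mpp7 were lost.

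Genes of brown fat were among the highest of all. Brown adipocytes burn fatty acids to make heat, through the mitochondrial uncoupling protein Ucp1, under the control of noradrenaline. Ucp1 stood at 11.59, 11.52 and 11.58 in germ-free animals 10, 11 and 12, against 4.08, 4.35 and 5.74 in colonized animals 4, 5 and 6. The germ-free arrays were nearly equal, while the colonized mean of 4.72 lay under the median of the negative controls, so the difference of 6.84 ± 1.33 (adjusted p = 0.011) is not exact at its lower end. Dio2, the deiodinase that activates thyroid hormone inside the cell, had 8.36, 8.65 and 9.22 in germ-free and 5.04, 5.78 and 5.94 in colonized arrays. Its groups lay apart by more than 2 units, and the difference was 3.15 ± 0.36 (adjusted p = 0.00165). Ppargc1a, the coactivator that drives mitochondrial biogenesis, had 8.91, 8.81 and 8.98 in germ-free and 5.42, 4.94 and 6.04 in colonized arrays (3.43 ± 0.58, adjusted p = 0.00606). Elovl3, an elongase of very long fatty acids, and Cidea, a lipid droplet protein, differed by 4.07 ± 0.69 and 3.51 ± 0.79 (Elovl3 with a colonized mean under the negative controls).

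In all, 9 of 10 brown adipocyte markers were called higher and none lower, with a median difference of 2.77. The exception was the potassium channel gene Kcnk3, at -0.27 (adjusted p = 0.397). Of the 12 general adipocyte markers 9 were called higher, with a median of 2.49 and all 12 above 0. Adipoq, which encodes adiponectin, had 11.18, 11.36 and 11.78 in germ-free and 4.03, 6.16 and 10.18 in colonized arrays. The colonized arrays spanned more than 6 units, and the difference of 4.65 ± 1.46 was not called (adjusted p = 0.0738). Aqp7, the glycerol channel of fat cells, differed by 3.02 ± 0.70 (adjusted p = 0.0226) and Dgat2, the last enzyme of triglyceride synthesis, by 2.86 (adjusted p = 0.0163). Without colonized animal 6 all 12 general adipocyte markers were called, and without colonized animal 4 or germ-free animal 12 none was, at medians of 3.17, 2.16 and 2.35. The brown fat calls ranged from 5 to 9 of 10 over the same fits, and Ucp1 lost its call without colonized animal 4 (adjusted p = 0.0528).

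The saline arrays show how far these levels varied within a group. After saline Ucp1 had 10.60, 9.63 and 9.45 in germ-free animals 7, 8 and 9, against 4.02, 10.97 and 10.35 in colonized animals 1, 2 and 3. The lowest and the highest array of this contrast were thus both colonized. Brown adipocyte markers had a median difference of -0.04 after saline with 0 of 10 called (1 at an unadjusted p under 0.05), and the test of whether the 2 colonization differences differ gave 5.39 ± 1.88 for Ucp1 (adjusted p = 0.373) and called none of the 10.

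**Figure D2:**
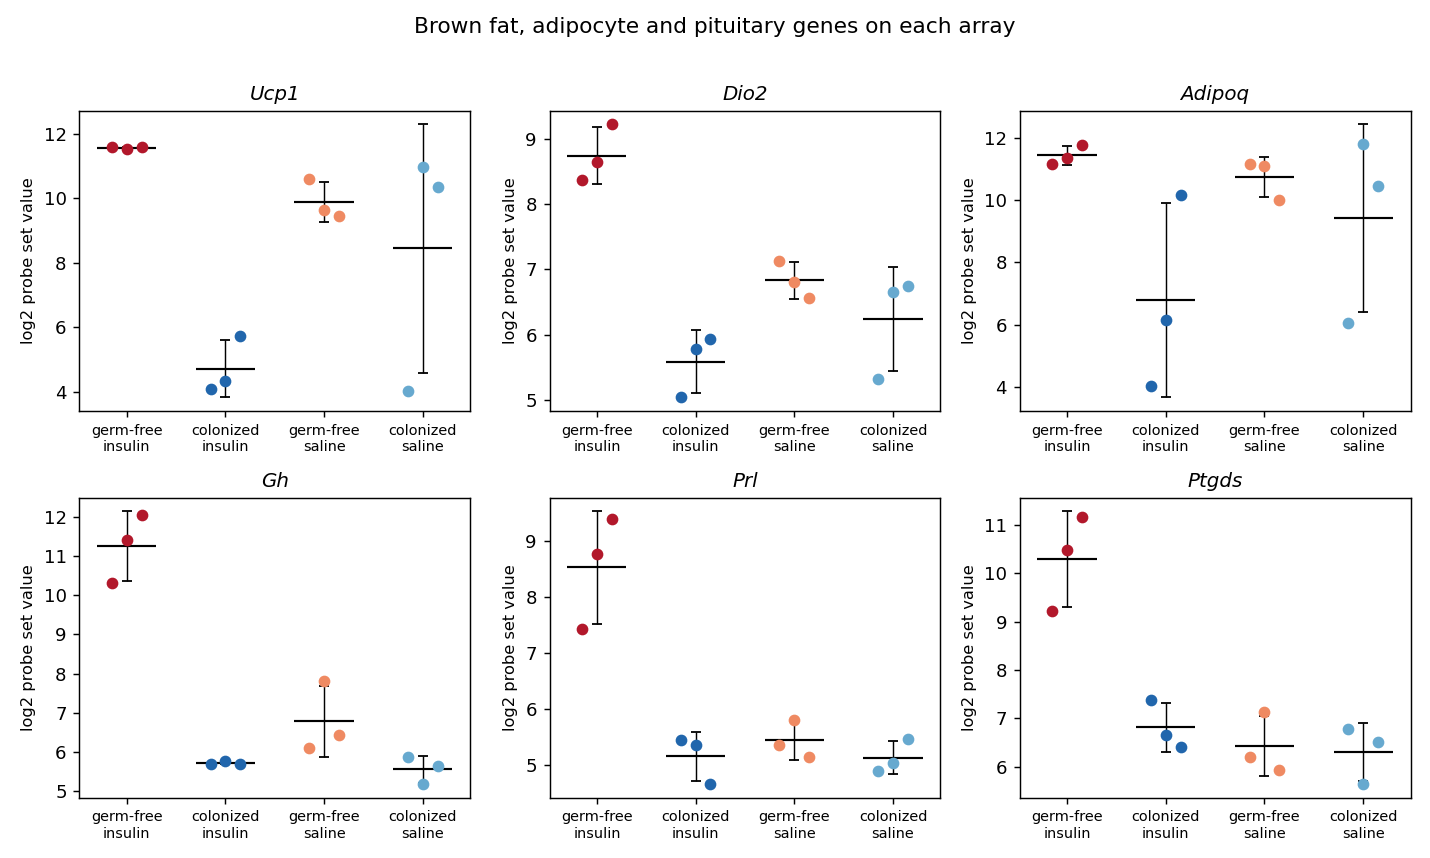
Log2 probe set values (vertical axes) of 3 fat genes (Ucp1, Dio2, Adipoq) and 3 genes that rose with pituitary markers (Gh, Prl, Ptgds) in the 4 groups, 1 point per array, with the mean as a line and the SD as an error bar (n = 3). All 3 germ-free insulin arrays lie above all 3 colonized insulin arrays for each gene, and colonized saline arrays span about 7 units for Ucp1.

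Several hormone genes of the anterior pituitary were higher in germ-free insulin arrays as well. Gh, which encodes growth hormone, had 10.31, 11.43 and 12.06 in germ-free animals 10, 11 and 12, against 5.70, 5.76 and 5.69 in colonized animals 4, 5 and 6. The lowest germ-free array lay more than 4 units above the highest colonized one, and the difference was 5.55 ± 0.44 (adjusted p = 0.000282). The colonized values of Gh, Prl, Cga, Pomc, Ptgds and Ttr all lay under 7.71, the 95th percentile of the negative control means, so the sizes of these differences are not exact. Prl, prolactin, had 7.42, 8.77 and 9.38 in germ-free and 5.45, 5.36 and 4.66 in colonized arrays (3.37 ± 0.40, adjusted p = 0.00192). Cga, the alpha subunit shared by the glycoprotein hormones, differed by 1.97 ± 0.30, from a colonized mean under the negative controls, and Pomc, the precursor of ACTH, by 1.45 ± 0.21. With Lhb (0.86), 5 of 8 pituitary markers were called higher and none lower (median 1.16). Tshb (0.37), Fshb (0.29) and the lineage factor gene Pitx1 (-0.11) were not called.

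Ptgds and Ttr, genes of 2 more secreted proteins, had the same order of germ-free arrays. Ptgds, prostaglandin D synthase, had 9.22, 10.48 and 11.16 in germ-free and 7.38, 6.66 and 6.40 in colonized arrays (3.47 ± 0.47, adjusted p = 0.00302). Ttr, the thyroxine carrier transthyretin, had 9.38, 10.55 and 10.94 in germ-free and 5.58, 6.03 and 5.93 in colonized arrays (4.44 ± 1.00, adjusted p = 0.0204). Animal 10 was the lowest and animal 12 the highest germ-free array for Gh, Prl, Cga, Pomc, Ptgds and Ttr alike. This order was not particular to these genes. The negative control median (5.30, 5.43 and 5.54) and the general adipocyte mean (10.09, 10.23 and 10.52) rose in the same order. Ttr is also made in liver. Alb, the liver's albumin gene, had 10.64, 11.23 and 6.66 in the germ-free arrays, lowest in animal 12, and differed by 3.44 ± 1.55 (adjusted p = 0.215). Ttr was the 1 of 11 hepatocyte markers called, while all 11 lay above 0 (median 0.95) and 3 had an unadjusted p under 0.05. The mean of these markers was 7.01 to 8.57 in germ-free and 6.07 to 6.41 in colonized insulin arrays, without overlap, and its part in the Ttr difference was not tested. The 5 pituitary calls held without any one of the 12 arrays, and Gh and Ptgds also kept theirs with the adipocyte covariate (5.78 and 4.12). With the negative control covariate none of these genes was called. There Ptgds (-1.54), Prl (-1.34), Cga (-0.80) and Lhb (-0.14) turned sign, while Gh and Pomc did not. Ttr lost its call without animals 4, 5, 11 or 12, with adjusted p up to 0.0876. Whether pituitary or other tissue reached these samples was not tested.

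Many genes that handle fatty acids were called higher too. Of 21 genes of fatty acid oxidation and PPAR targets 11 were called higher and none lower (median 0.46). Cpt1b, the muscle and brown fat form of the enzyme that admits fatty acids to mitochondria, had 9.18, 9.06 and 8.94 in germ-free and 6.81, 6.08 and 6.51 in colonized arrays (2.59 ± 0.48, adjusted p = 0.00911). Slc25a20, the carnitine carrier at the next step, had 9.56, 9.59 and 9.76 in germ-free and 8.58, 8.71 and 8.73 in colonized arrays. The groups were tight and well apart, and the difference of 0.96 ± 0.11 (adjusted p = 0.00159) kept its call without any one array. Ehhadh, a peroxisomal oxidation enzyme, differed by 1.49 ± 0.36, and Pdk4, the kinase that shuts off pyruvate oxidation, by 1.99 ± 0.53. Ehhadh lost its call without any of animals 4, 5, 10, 11 and 12 (adjusted p up to 0.117), and Pdk4 without these and without animals 6, 8 and 9 (up to 0.141). Over the fits that left out 1 insulin array, 4 to 8 of these 21 genes were called.

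Fatty acid synthesis genes had 3 of 9 called higher and none lower (median 1.17), among them Acaca, acetyl-CoA carboxylase (2.24 ± 0.45), and Thrsp, a lipogenic nuclear protein (2.45 ± 0.56). Fasn and Scd1 differed by 1.72 ± 0.49 and 1.38 ± 0.43 without being called. Of 26 respiratory chain and ATP synthase genes 4 were called higher, with a median of 0.27 and 22 of 26 above 0. The complex I subunit gene Ndufb3 differed most (0.88 ± 0.16, adjusted p = 0.00767), followed by Uqcrc2 of complex III (0.60 ± 0.14). No gene of these 3 lists except Slc25a20 was called for a different germ-free effect after insulin than after saline (12, 5 and 13 at an unadjusted p under 0.05). Adipocyte markers moved with all 3 lists in the same arrays. With the adipocyte covariate none of their genes was called (medians 0.36, 0.16 and 0.03). Over all genes that fit called 9 higher and 27 lower, so the loss of calls is not particular to these lists.

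The other called genes of largest rise included Cdo1 (3.65 ± 1.00), which breaks down cysteine, Car5b (3.02 ± 0.72), a mitochondrial carbonic anhydrase, Adtrp (3.54 ± 0.96), a hydrolase of fatty acid esters, Mme (2.96 ± 0.68), the peptidase neprilysin, and Acsm3 (2.89 ± 0.63), an acyl-CoA synthetase. For each of the 5 colonized animal 6 was the highest colonized array, at 10.04 for Cdo1 against 6.55 and 6.93 in animals 4 and 5. Calls for Cdo1 and Adtrp held in 3 of the 12 fits with 1 array left out.

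Chromaffin genes moved the other way. Of 14 chromaffin markers 9 were called lower and none higher, all 14 lay below 0, and the median difference was -0.98. Phox2a, a transcription factor that specifies noradrenergic cells, had 7.21, 7.03 and 6.42 in germ-free animals 10, 11 and 12, against 8.66, 8.45 and 8.19 in colonized animals 4, 5 and 6 (-1.55 ± 0.20, adjusted p = 0.00266). Hand2 and Gata2, 2 more factors of the sympathoadrenal lineage, differed by -1.19 and -1.02 and were called as well. Among the 15 lowest genes were 3 more of regulators of development, namely Tfap2b (-1.69 ± 0.18), a neural crest factor, Tbx20 (-1.82 ± 0.27) and Mab21l2 (-1.92 ± 0.27). Tfap2b had 7.13, 6.94 and 6.84 in germ-free and 9.00, 8.61 and 8.38 in colonized arrays, and remained called with the adipocyte covariate (-1.13). All chromaffin differences come with higher adipocyte and pituitary markers in the same 3 arrays. The mean of the cortex markers was higher there too, at 12.03 to 12.11 against 11.89 to 11.94 in colonized insulin arrays, though no single cortex marker was called.

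The enzymes that make catecholamines include 3 of the 9 called chromaffin markers. Th, tyrosine hydroxylase, had 13.47, 13.18 and 13.07 in germ-free and 13.91, 13.87 and 13.56 in colonized arrays. The groups did not overlap, but the difference of -0.54 ± 0.16 was not called (adjusted p = 0.0642), and its colonized level of 13.91 is the top of the scale of the whole table. Ddc, the decarboxylase that makes dopamine, had 9.42, 9.03 and 8.85 in germ-free and 10.41, 10.11 and 9.95 in colonized arrays (-1.06 ± 0.18, adjusted p = 0.00695). Dbh, which makes noradrenaline, had 12.87, 12.40 and 12.19 in germ-free and 13.65, 13.53 and 13.08 in colonized arrays (-0.93 ± 0.19, adjusted p = 0.013). Pnmt, which makes adrenaline, had 11.34, 10.71 and 10.48 in germ-free and 12.40, 12.00 and 11.80 in colonized arrays (-1.22 ± 0.27, adjusted p = 0.0202). In each of the 4 genes germ-free animal 10 lay closest to the colonized arrays and colonized animal 4 was the highest array of all 6. Pcbd1, which recycles the tetrahydrobiopterin cofactor of Th, differed by -1.18 ± 0.22. Over the pathway and its cofactor 5 of 10 genes were called lower and none higher, at a median of -0.53, and without animal 4 or animal 12 the count was 1 of 10. Pnmt and Dbh lost their calls without animals 4, 5, 11 or 12 (adjusted p up to 0.0954 for Pnmt and 0.0651 for Dbh), and Ddc kept its call without any one array.

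Genes that load and package the granules had several lower calls. Slc18a2, a vesicular monoamine transporter, differed by -1.14 ± 0.23 (adjusted p = 0.0137), and Slc18a1, its endocrine form, by -1.23 ± 0.36 without being called. Cyb561, which passes electrons into granules for Dbh, had 9.56, 9.38 and 8.92 in germ-free and 10.74, 10.39 and 10.33 in colonized arrays (-1.20 ± 0.20). Of 10 granin and prohormone processing genes 5 were called lower and none higher (median -0.94), and 9 of the 10 lay below 0. The exception was Cpe, carboxypeptidase E, which trims prohormones, at 0.59 ± 0.20 without being called (adjusted p = 0.106). Scg3, a granin that anchors others to the granule membrane, had 7.87, 7.37 and 7.19 in germ-free and 9.29, 8.67 and 8.63 in colonized arrays (-1.39 ± 0.23, adjusted p = 0.00583). Pcsk1n, an inhibitor of the prohormone convertase Pcsk1, differed by -1.33 ± 0.24, Scg5 by -0.97 ± 0.23 and Chga, chromogranin A, by -0.86 ± 0.18. Among 11 neuropeptide precursors none was called (3 at an unadjusted p under 0.05, median 0.04), with Npy at -0.88 ± 0.25 (adjusted p = 0.0539), Penk at -0.54 ± 0.42 and Cck at 0.64 ± 0.21.

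**Figure D3:**
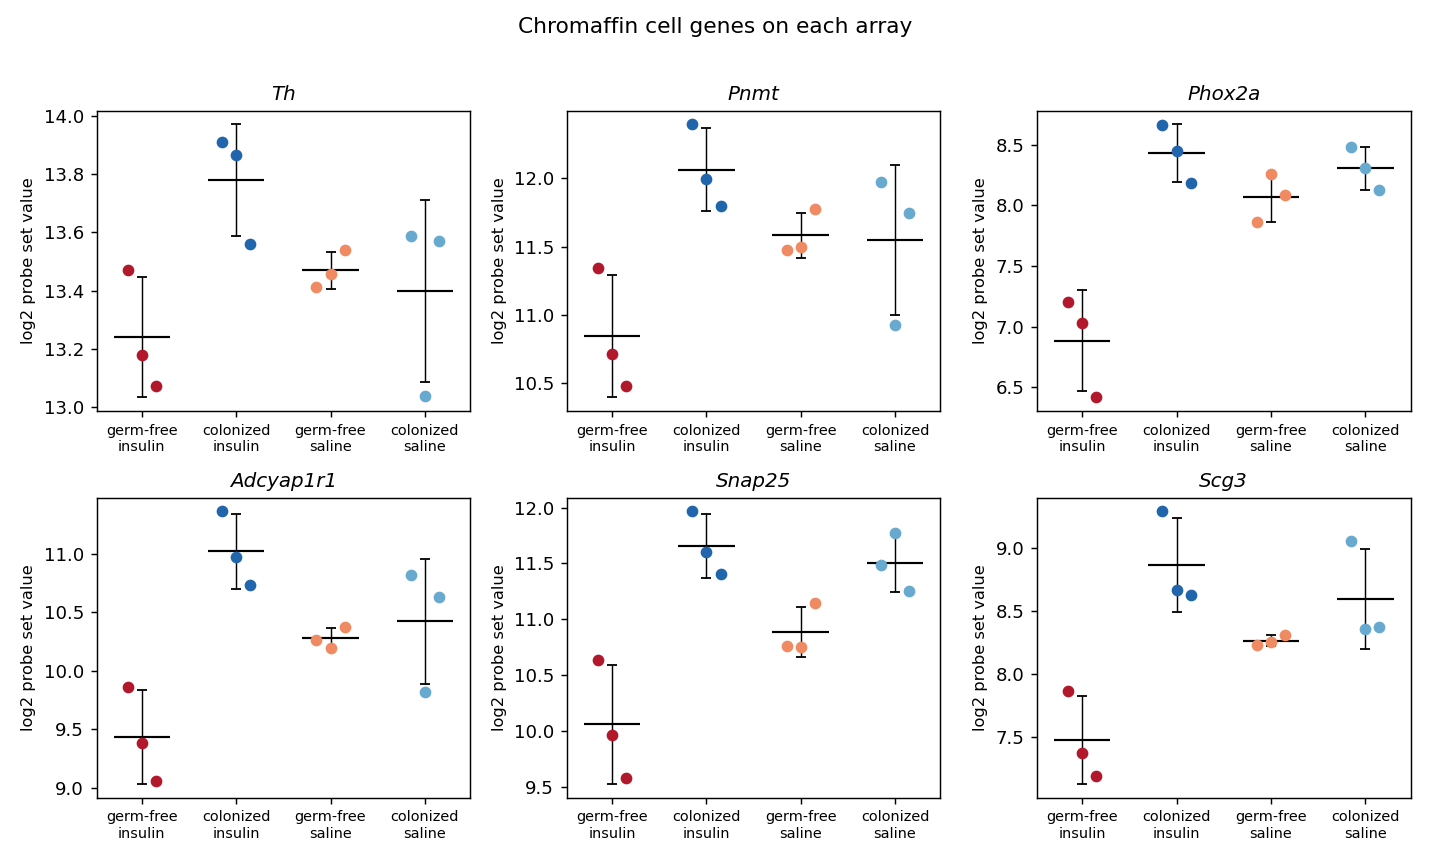
Log2 probe set values (vertical axes) of 6 genes of chromaffin cells in the 4 groups, 1 point per array, with the mean as a line and the SD as an error bar (n = 3). For each gene the 3 germ-free insulin arrays lie below the 3 colonized insulin arrays.

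Among receptors for the nerve signal, 4 of 11 were called lower in germ-free insulin arrays, 2 of the 11 lay above 0 and the median was -0.60. Adcyap1r1, the PACAP receptor, had 9.86, 9.39 and 9.06 in germ-free and 11.36, 10.97 and 10.73 in colonized arrays (-1.59 ± 0.26, adjusted p = 0.00559). The nicotinic acetylcholine receptor genes Chrnb4 (-1.29 ± 0.34), Chrna7 (-1.26 ± 0.27) and Chrnb2 (-1.23 ± 0.16) were called lower too. Adcyap1r1 and Chrnb2 kept their calls without any one array, and Chrnb4 kept its in 5 of 12 such fits.

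Excitability genes split. Of 8 channel genes 3 were called lower, namely the sodium channel genes Scn3a (-1.22 ± 0.18) and Scn3b (-1.34 ± 0.25) and the N-type calcium channel gene Cacna1b (-0.93 ± 0.26), which kept its call in 4 of the 12 fits with 1 array left out. The L-type calcium channel gene Cacna1c was called higher, with 10.97, 11.08 and 10.97 in germ-free and 9.78, 10.00 and 10.40 in colonized arrays (0.95 ± 0.16, adjusted p = 0.00569), and kept its call in all 12. Of 17 exocytosis genes 6 were called lower and none higher (median -0.67). Snap25, a SNARE protein that fuses granules with the membrane, had 10.63, 9.97 and 9.57 in germ-free and 11.97, 11.60 and 11.40 in colonized arrays (-1.60 ± 0.24, adjusted p = 0.00423). Dnm1, the dynamin that retrieves membrane afterwards and a gene outside that list, had 6.10, 5.96 and 5.65 in germ-free and 7.70, 7.51 and 7.48 in colonized arrays (-1.66 ± 0.16, adjusted p = 0.000755). Dnm1 also kept its call with the adipocyte covariate (-1.72). All its values in both groups lay under 7.71, so the size of its difference is not exact. The exocytosis count fell to 1 of 17 without any one of animals 4, 11 and 12.

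The other named genes of largest fall were Rtl4 (-2.17 ± 0.31), a gene derived from a retrotransposon, Slc7a14 (-2.05 ± 0.23), a member of an amino acid transporter family, Nrsn2 (-1.87 ± 0.22), Prl8a2 (-1.87 ± 0.38), of the prolactin family, Cd55 (-1.67 ± 0.26), a complement regulator, Pirt (-1.66 ± 0.23), Slc35d3 (-1.66 ± 0.24), Pcdh10 (-1.66 ± 0.28), a protocadherin, and Disp2 (-1.61 ± 0.26). Rtl4 and Slc7a14 were the only called genes at or below -2. Rtl4 had 6.13, 5.75 and 5.92 in germ-free and 8.34, 7.93 and 8.05 in colonized arrays, with no overlap. Its germ-free values lay under 7.71, so the size of its difference is not exact.

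**Figure D4:**
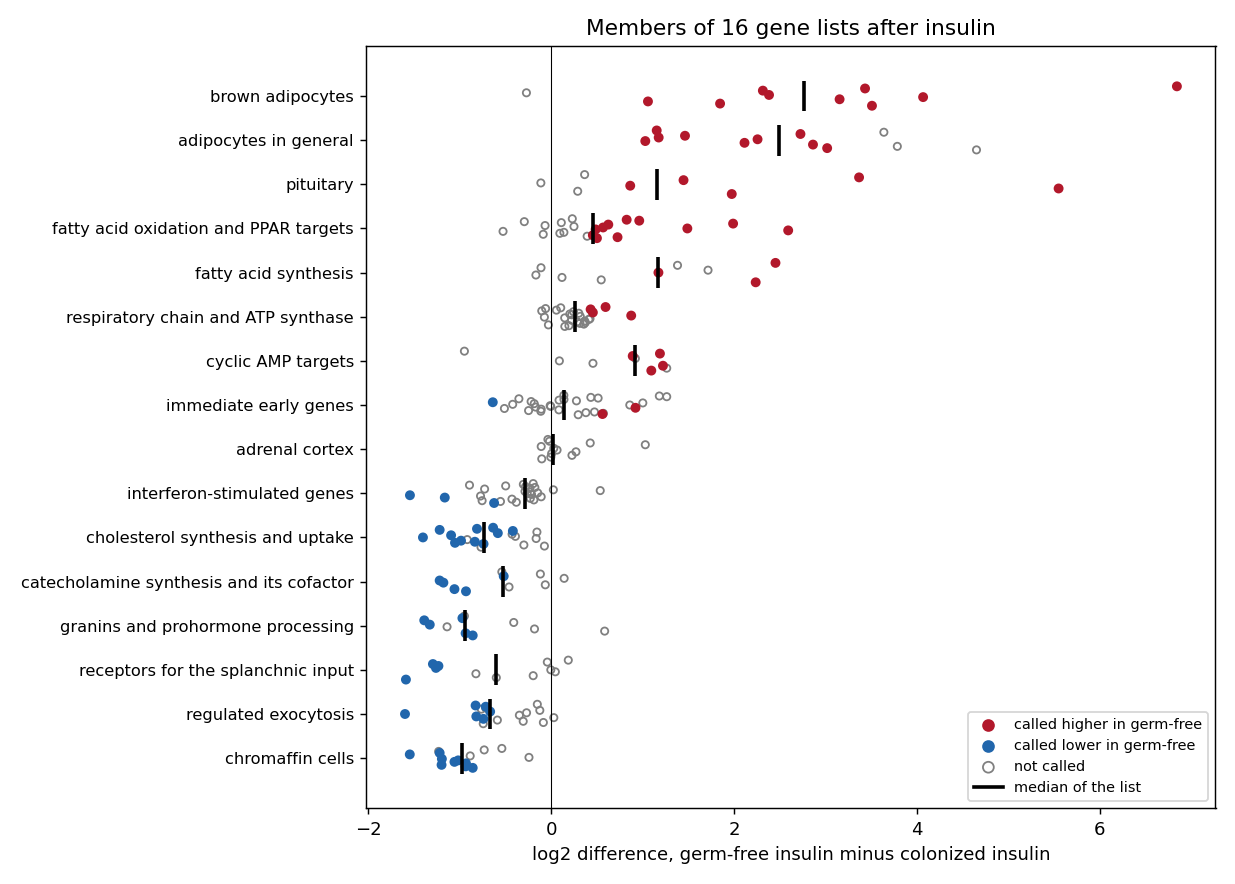
Log2 difference, germ-free insulin minus colonized insulin (horizontal axis), of each measured member of 16 gene lists (rows). Filled points passed the test in red (higher) or blue (lower), open points did not, and the bar is the list's median, from 2.77 for brown adipocyte markers to -0.98 for chromaffin markers.

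Several targets of cyclic AMP were higher. Of 9 such targets 4 were called higher and none lower, at a median of 0.92. Pde10a, a phosphodiesterase that degrades cyclic nucleotides, had 10.28, 10.23 and 10.00 in germ-free and 8.97, 8.98 and 8.90 in colonized arrays (1.22 ± 0.18, adjusted p = 0.0037). Sik1, a kinase that feeds back on cyclic AMP signalling, had 10.29, 10.54 and 10.90 in germ-free and 9.95, 9.28 and 8.93 in colonized arrays (1.19 ± 0.27, adjusted p = 0.0221). Gem, a small GTPase that restrains calcium channels, differed by 1.10 ± 0.28. Pde10a kept its call without any one array and with the adipocyte covariate (1.59), while over the fits without 1 insulin array 1 to 3 of the 9 were called. After saline 6 of the 9 were called higher (median 1.56, against 2.79% of all genes called higher there), among them these 3.

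Immediate early genes, which neural activity induces within minutes, had members in both directions after insulin. Of 29 members 2 were called higher and 1 lower (median 0.14), and at an unadjusted p under 0.05 there were 10 higher and 3 lower. Fosb was higher, with 9.06, 9.36 and 9.65 in germ-free and 8.48, 8.46 and 8.35 in colonized arrays (0.92 ± 0.17, adjusted p = 0.00949), as was Atf3 (0.56 ± 0.15, called in 4 of the 12 fits with 1 array left out, adjusted p up to 0.164), and Jund, a partner of Fos proteins, was lower (-0.64). Fos stood at 7.68, 7.85 and 7.91 in germ-free and 9.07, 7.88 and 8.02 in colonized arrays, a difference of -0.51 ± 0.26 that was not called (adjusted p = 0.268). Only colonized animal 4 stood out for Fos. Egr1 (-0.11 ± 0.19), Nr4a1 (0.43 ± 0.21), Nr4a2 (1.26 ± 0.36, adjusted p = 0.0516) and Nr4a3 (1.18 ± 0.35) were not called either. After saline 11 of the 29 were called higher (median 0.40), against 2.79% of all genes. No member of the list was called for a different germ-free effect after insulin than after saline (7 at an unadjusted p under 0.05). Ptgs2, the inducible cyclooxygenase, had 10.02, 9.54 and 10.02 in germ-free and 10.06, 8.93 and 7.84 in colonized arrays, which overlapped (0.92 ± 0.46, adjusted p = 0.269).

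Most genes of cholesterol synthesis were called lower in germ-free insulin arrays. Cholesterol is made by a chain of enzymes whose genes the factor SREBP2, encoded by Srebf2, switches on together through sterol response elements. Of 19 genes of synthesis and uptake 11 were called lower, none was higher, all 19 lay below 0 and the median was -0.74. Sqle, squalene epoxidase, had 8.65, 8.49 and 8.38 in germ-free and 10.02, 9.72 and 9.44 in colonized arrays (-1.22 ± 0.16, adjusted p = 0.00302). Lss, which closes the sterol ring, had 9.29, 9.42 and 9.34 in germ-free and 11.19, 10.73 and 10.32 in colonized arrays (-1.40 ± 0.34, adjusted p = 0.029). Mvd (-1.09 ± 0.19) and Fdps (-1.05 ± 0.19), of the mevalonate steps, and Srebf2 itself (-0.81, adjusted p = 0.0034) were lower too. For Sqle, Lss, Mvd and Fdps colonized animal 4 was the highest and animal 6 the lowest colonized array, and the groups did not overlap. Between 5 and 11 of the 19 were called when 1 insulin array was left out. The adipocyte covariate left 0 (median -0.24), while over all genes it left 9 higher and 27 lower calls. After saline 6 of the 19 were called lower (median -0.38, against 4.09% of all genes called lower there).

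The 250 bases before the start of each gene were searched on both strands for sequences that regulators of the cyclic AMP, interferon and sterol responses are known to bind. These promoters are from RefSeq (build GRCm38.p6), printed 5′ to 3′ on the gene's strand in lower case with the match in capitals. The cyclic AMP response element was searched as TGACGTCA, the interferon response element as GAAA, NN and GAAA in a row, and the sterol response element as TCACNCCAC, where N is any base. They occur in 1.62%, 3.04% and 1.04% of all 27025 promoters. The promoters shown are a selection from the called genes that hold a match. The first 2 promoters hold the cyclic AMP element, in a granin gene called lower and in a brown fat gene called higher. The next 2 hold the interferon element on either strand, and the last holds the sterol element.
Chgb, chr2:132781392-132781641, plus strand: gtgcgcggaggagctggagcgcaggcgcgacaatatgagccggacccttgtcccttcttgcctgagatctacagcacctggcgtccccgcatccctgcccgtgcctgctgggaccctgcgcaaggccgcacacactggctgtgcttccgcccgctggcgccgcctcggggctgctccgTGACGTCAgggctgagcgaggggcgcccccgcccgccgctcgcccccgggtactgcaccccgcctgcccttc
Dio2, chr12:90739039-90739288, minus strand: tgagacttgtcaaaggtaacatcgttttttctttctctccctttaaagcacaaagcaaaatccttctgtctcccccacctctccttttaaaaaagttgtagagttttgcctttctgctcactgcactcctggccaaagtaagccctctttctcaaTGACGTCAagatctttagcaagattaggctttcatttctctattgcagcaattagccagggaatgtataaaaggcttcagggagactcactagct
Ifit1, chr19:34640639-34640888, plus strand: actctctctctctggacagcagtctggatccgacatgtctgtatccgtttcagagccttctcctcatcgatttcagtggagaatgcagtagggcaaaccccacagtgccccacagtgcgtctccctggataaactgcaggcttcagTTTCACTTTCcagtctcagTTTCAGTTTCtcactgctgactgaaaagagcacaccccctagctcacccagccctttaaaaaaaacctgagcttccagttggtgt
Bst2, chr8:71537473-71537722, minus strand: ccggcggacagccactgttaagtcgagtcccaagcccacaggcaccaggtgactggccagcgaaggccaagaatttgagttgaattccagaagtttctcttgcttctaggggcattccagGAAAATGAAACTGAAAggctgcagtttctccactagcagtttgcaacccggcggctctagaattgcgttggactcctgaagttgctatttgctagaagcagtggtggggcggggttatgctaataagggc
Hmgcs1, chr13:119690101-119690350, plus strand: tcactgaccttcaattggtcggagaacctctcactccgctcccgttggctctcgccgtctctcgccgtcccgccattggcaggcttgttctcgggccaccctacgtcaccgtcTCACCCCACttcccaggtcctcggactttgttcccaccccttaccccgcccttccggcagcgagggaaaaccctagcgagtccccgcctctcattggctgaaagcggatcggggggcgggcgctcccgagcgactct

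The cyclic AMP element lay 72 bases before the start of Chgb (called lower, -0.94) and 95 bases before that of Dio2 (called higher, 3.15), so the same letters stood before genes of opposite direction. In Ifit1 and in Bst2 there were 2 matches each, those of Bst2 overlapping. The sterol element lay 137 bases before Hmgcs1, an early enzyme of the mevalonate steps (called lower, -0.83). Among the 18 interferon genes that had a promoter entry, 10 held the interferon element, among the 15 cholesterol genes 1 held the sterol element, and among the 6 cyclic AMP targets 0 held the full cyclic AMP element. Its shorter form TGACG, also searched, lay before 4 of these 6 and in 17.9% of all promoters. A direct repeat of the PPAR kind was searched too and lay in 0.037% of all promoters. Called genes of other lists held matches as well, with the interferon element before Aif1 and Unc13a (lower) and before Sgk1 and Vegfa (higher). The sterol element also lay before Ehhadh and Tiparp, both called higher, opposite to Hmgcs1. These matches describe the sequence and are no measure of binding.

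Interferon-stimulated genes, which viral or microbial nucleic acids and interferons switch on, leaned downward. Of 26 members 3 were called lower and none higher, 24 lay below 0 and the median was -0.28. Irf7, the factor that amplifies the interferon response, had 7.24, 7.57 and 7.35 in germ-free and 8.78, 9.39 and 8.62 in colonized arrays (-1.54 ± 0.18, adjusted p = 0.00192). Ifit1, which binds foreign RNA, had 6.37, 6.64 and 6.82 in germ-free and 7.73, 8.15 and 7.44 in colonized arrays (-1.16 ± 0.21, adjusted p = 0.00795). Irf7 and Ifit1 kept their calls without any one array. Bst2, which tethers virus particles to the cell, was the remaining called member (-0.62, adjusted p = 0.035). Bst2 kept its call in 6 of the 12 fits with 1 array left out. Leaving out colonized animal 6 raised the count to 8 of 26. After saline none was called (3 at an unadjusted p under 0.05, all higher), the median was 0.05, and Irf7 differed by -0.39 (adjusted p = 0.215). The test of a different germ-free effect after insulin than after saline called none of the 26 (14 at an unadjusted p under 0.05).

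Among 15 microbial pattern sensors Ly96, the partner of Toll-like receptor 4 in binding lipopolysaccharide, was called lower, with 10.37, 10.16 and 9.78 in germ-free and 11.00, 10.92 and 10.98 in colonized arrays (-0.86 ± 0.14, adjusted p = 0.005). Tlr5, the flagellin receptor, was called higher (0.76 ± 0.17) but lay under the negative controls in both groups, where the floor itself is higher in germ-free arrays. None of 8 receptors for microbial metabolites was called (0 at an unadjusted p under 0.05), and none of 15 antigen presentation genes (4 at an unadjusted p under 0.05, all lower). Of 11 macrophage markers Aif1 alone was called (-0.91 ± 0.20), and of 8 lymphocyte markers none (0 at an unadjusted p under 0.05). None of 18 inflammation genes was called (2 at an unadjusted p under 0.05).

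Genes of sugar use and of insulin signalling had calls in both directions. Slc2a3, a glucose transporter of neural cells, had 7.63, 7.65 and 7.52 in germ-free and 9.33, 8.90 and 8.66 in colonized arrays (-1.37 ± 0.19, adjusted p = 0.00305). Slc2a4, the insulin-regulated transporter of fat and muscle, had 8.23, 8.15 and 8.20 in germ-free and 6.82, 6.99 and 7.31 in colonized arrays (1.15 ± 0.27, adjusted p = 0.0221). Slc2a4 is also 1 of the general adipocyte markers. Pfkfb3, which speeds glycolysis, was higher by 2.69 ± 0.54, and Hk1, the first kinase of glycolysis, lower (-0.93 ± 0.24). Hk1 kept its call in 6 of the 12 fits with 1 array left out. Over 17 genes of glucose transport and glycolysis 2 were called higher and 4 lower (median -0.13). Of 21 genes of insulin signalling and FOXO targets 3 were called higher and 1 lower (median 0.09), with Foxo1 at 0.62 ± 0.12 and Foxo4 at -0.58 ± 0.14. Over all genes 2.6% were called higher and 5.15% lower, so the single lower call is near the share of all genes. Among 9 hypoxia targets Adm, adrenomedullin, was lower, with 6.57, 6.52 and 6.40 in germ-free and 8.10, 7.78 and 8.29 in colonized arrays (-1.56 ± 0.21, adjusted p = 0.00302), and Vegfa, an angiogenic factor, was higher (0.95 ± 0.18, adjusted p = 0.00885).

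The contrast after insulin was then set beside the one after saline, in which 544 genes were higher and 798 lower in germ-free mice (6.88% in either direction). Of the genes called higher after insulin 159 were also called higher after saline (31.4% of the insulin and 29.2% of the saline list), and of those called lower 322 (32.0% and 40.4%). Another 2 genes were called higher after insulin and lower after saline, and 0 the other way round. Of the genes called higher after insulin 82.1% had a difference above 0 after saline, against 44.0% of all genes, and of those called lower 93.9% had one below 0, against 56.0%. Across the 19505 genes the differences correlated at r = 0.450 and rho = 0.454, a description, since genes are not independent replicates. The 2 contrasts share no array, but they share the higher negative controls of germ-free arrays. Their calls also rest on the same estimate of spread, pooled over all groups, so the 2 lists of calls are not independent. Fitted from its own 6 arrays alone, the saline contrast had 94 genes higher and 63 lower, and the insulin contrast 731 and 1510. The overlap of calls between such separate fits was not counted.

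Among genes called in both, chosen after their values were seen, Mpp7 had the firmest difference. Mpp7, a scaffold protein of cell junctions, had 9.35, 9.40 and 9.54 in germ-free and 6.75, 6.56 and 6.47 in colonized insulin arrays (2.84 ± 0.16, adjusted p = 7.23e-06), and differed by 2.45 after saline. The colonized insulin values of Mpp7 lay under 7.71, so the size of its difference is not exact. It was the gene that kept its call under the chromaffin covariate (3.09, adjusted p = 0.0478) and also under the adipocyte covariate (3.16). Under the negative control covariate it lost its call, as did every other gene. Kcnq1ot1, an imprinted noncoding RNA, differed by 1.54 ± 0.14 after insulin and 2.04 after saline, Slc6a5, a glycine transporter, by 1.79 ± 0.32 and 1.82, and Atg101, an autophagy initiator, by 1.40 ± 0.16 and 1.52. Inha, an inhibin subunit, differed by 1.29 ± 0.21 and 1.28, and the noncoding RNA Lncpint by 1.27 ± 0.21 and 1.35. Lower in both were Hpca, a neuronal calcium sensor (-1.66 ± 0.21 and -1.83), Rab15 (-1.88 ± 0.29, with a germ-free mean under the negative controls, and -1.59), Elavl3, a neuronal RNA-binding protein (-1.60 ± 0.28 and -1.46), Sfrp1, an inhibitor of Wnt signals (-1.42 ± 0.27 and -1.57), Gpnmb (-1.39 ± 0.31 and -1.66) and Mmd2 (-1.36 ± 0.32 and -1.47).

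**Figure D5:**
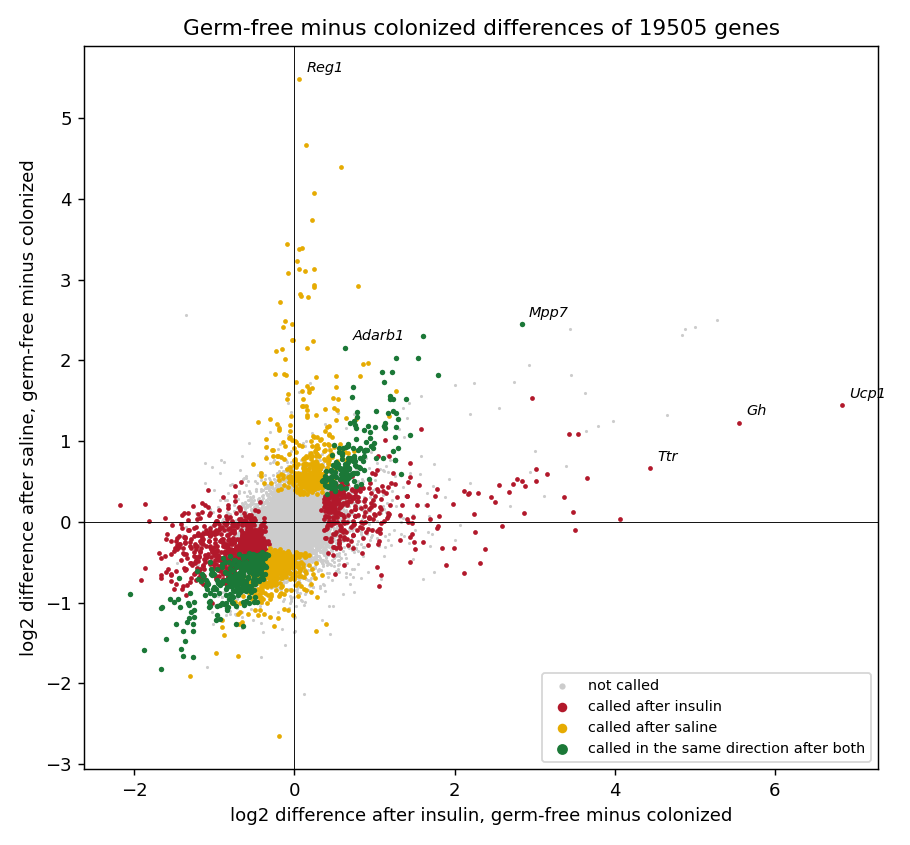
Log2 difference, germ-free minus colonized, of each of 19505 genes after insulin (horizontal axis) and after saline (vertical axis), coloured by the test each gene passed. Genes called in both lie in 2 arms, up and down together, while Ucp1, Gh and Ttr extend along the insulin axis and Reg1 along the saline axis.

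The chromaffin markers had a median difference of -0.22 after saline and 0 of 14 were called there (3 at an unadjusted p under 0.05), against -0.98 and 9 of 14 after insulin. The test of the difference itself called none of the 14 (9 at an unadjusted p under 0.05), with Phox2a at -1.31 (adjusted p = 0.134) and Pnmt at -1.25 (adjusted p = 0.331). Over all genes that test called 7 (0.0359%), with 1941 at an unadjusted p under 0.05. Gh (4.32 ± 0.63, adjusted p = 0.0462) and Slc25a20 (1.06 ± 0.15, adjusted p = 0.0462) had the more positive germ-free effect after insulin. Slc25a20 was level after saline, with 9.15, 9.27 and 8.94 in germ-free and 9.25, 9.18 and 9.23 in colonized arrays. Adarb1, an RNA-editing deaminase, was higher in germ-free mice in both settings, by 0.64 ± 0.16 after insulin and 2.16 after saline. The other 4, Reg1, Guca2b, Muc13 and Slc5a1, are genes of intestinal epithelium that differed by 0.06, 0.15, 0.24 and 0.03 after insulin and were not called there. Intestinal markers as a whole had 0 of 15 called after insulin (1 at an unadjusted p under 0.05), against 13 of 15 higher after saline. Leaving out single arrays gave 1 gene (without animals 4, 5, 6, 9, 11 or 12) to 83 genes (without colonized saline animal 1) for this test.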

How the data were processed

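Expression was measured on Affymetrix mouse arrays, 1 per animal, with 3 animals in each of 4 groups. The authors deposited 1 table of log2 values per probe set. The submitters' processing notes name RMA, which corrects background, normalizes quantiles and summarizes probes into probe sets, and limma, without versions. No source used here says if the 12 arrays went through RMA in 1 run. Quantile normalization sets each array's distribution, so differences are relative. The medians over all genes still lay apart in the deposited values. They were 6.78 to 6.81 in germ-free and 6.85 to 6.89 in colonized insulin arrays. After saline they were 6.82 to 6.85 and 6.89 to 6.95. No detection calls were used; dim genes are marked by the median of the negative control rows. Precision is limited by the 3 arrays in a group.

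Of 28846 rows 19572 had 1 gene symbol and 9274 none. A gene was counted by its probe set of highest mean over the 12 arrays, giving 19505 genes (55 had several). A model with 1 mean per group was fitted to all 12 arrays (limma 3.58.1, R 4.3.3, eBayes, 8 residual and 4.08 prior degrees of freedom), with Benjamini-Hochberg adjustment over 19572 probe sets. P values rest on the spread between animals within groups, pooled over all 4 groups. Those of the insulin contrast thus also carry the spread of the saline arrays. An exact permutation of 3 against 3 arrays cannot give a two-sided p below 0.1, so none is reported.

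Members and gene lists (46 lists, 539 of 597 symbols measured) were chosen with earlier results of these data known. Lists are described by counts and medians and were not tested as sets. Named genes are the 15 highest and 15 lowest called differences without overlap, up to 4 members of each list by size of difference and a few set genes. Other list members named by their difference (Chgb, Dgat2, Fshb, Gata2, Hand2, Hmgcs1, Kcnk3, Lhb, Pitx1, Srebf2, Bst2, Tshb, Jund, Cpe) and genes called in both contrasts were chosen after their values were seen. Symbols such as Gm followed by digits, of which 34 were called higher and 17 lower, were counted and not named. Alternatives were other row sets, leaving out probe sets whose mean is below 7.71, the 95th percentile of the negative controls, a second quantile normalization, median centring, eBayes options, array weights, marker covariates, other thresholds and leaving out each array. The fit was tested on simulated data.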

Additional observations from a re-analysis of the deposited data

Results flagged for a closer look

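For 7 genes the germ-free effect after insulin differed from that after saline by the test of the difference itself. The effect was more positive after insulin for Gh (4.32) and Slc25a20 (1.06). It was more negative after insulin for Reg1 (-5.43), Guca2b (-4.52), Muc13 (-3.83), Slc5a1 (-3.20) and Adarb1 (-1.52). All values are log2 differences of differences. The 4 intestinal genes were close to level after insulin and high in germ-free arrays after saline.

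Rows outside the gene comparison also separated the groups. Of the 5222 negative control rows 1587 (30.4%) were called higher in germ-free than in colonized insulin arrays and 8 lower. Of the 2634 transcript rows with no gene symbol 104 were called higher and 86 lower.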

How the results depend on the processing

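Counts after insulin are given as higher and lower in germ-free arrays, then those after saline and for the difference of both where they moved by over 1.5 times. The insulin count of 507 and 1005 was 731 and 1510 from these 6 arrays alone (saline from its own 6 arrays 94 and 63), 538 and 1696 after a second quantile normalization (saline 502 and 1342, difference 11), 677 and 652 after median centring (saline 760 and 428, difference 2) and 1358 and 2354 with array weights (saline 812 and 1536, difference 148). The difference test, 7 genes, gave 1 over all rows, 14 with a trend and 1 with a robust fit. The cortex covariate gave 365 and 930 (saline 0 and 0, difference 1), the adipocyte covariate 9 and 27 (difference 1), the chromaffin covariate 1 and 0 (saline 346 and 363, difference 0) and the negative control covariate, chosen after seeing the data, 0 and 0 (saline 0 and 0). An adjusted p under 0.01 gave 117 and 272 (saline 151 and 138, difference 1), one under 0.1 gave 833 and 1675 (saline 916 and 1526, difference 49), and an absolute difference of at least 1 gave 134 and 225 (saline 129 and 66). Leaving out each array in turn gave 133 to 912 higher and 317 to 1929 lower genes after insulin, 217 to 642 and 215 to 1287 after saline, and 1 to 83 for the difference. The causes were not tested, beyond what fewer arrays or a threshold do by construction.

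The sign of a named log2 difference turned in these cases. With the chromaffin covariate the values were Adipoq -3.38, Cdo1 -1.63, Car5b -1.05, Adtrp -0.68, Thrsp -0.44, Scd1 -0.33, Reg1 -0.30, Cpe -0.30, Fasn -0.28, Mme -0.28, Dgat2 -0.27, Slc5a1 -0.13, Dnajb9 -0.12, Aqp7 -0.10, Guca2b -0.073, Acsm3 -0.017, Egr1 0.011, Disp2 0.016, Pitx1 0.076, Pcsk1 0.11, Fos 0.11, Pcsk1n 0.18, Dbh 0.22, Th 0.24, Cacna1b 0.26, Pnmt 0.31, Prl8a2 0.31, Npy 0.36, Chrnb4 0.38, Scg5 0.40 and Slc18a1 0.48. With the negative control covariate they were Ptgds -1.54, Nr4a2 -1.50, Sik1 -1.35, Prl -1.34, Nr4a1 -1.27, Tiparp -1.22, Slc5a1 -0.94, Cga -0.80, Vegfa -0.79, Dnajb9 -0.68, Gem -0.49, Guca2b -0.40, Adarb1 -0.40, Atf3 -0.18, Reg1 -0.16, Nfil3 -0.14, Lhb -0.14, Pcsk1n 0.045, Scg3 0.059, Scg5 0.073, Gata2 0.21, Ly96 0.22, Dbh 0.32, Hk1 0.38, Pcdh10 0.43, Mmd2 0.54, Pcbd1 0.55, Ddc 0.71, Penk 0.82, Snap25 1.01, Cacna1b 1.44 and Chrnb4 1.72. With the adipocyte covariate they were Adipoq -0.79, Alb -0.39, Cdo1 -0.14, Scd1 -0.11, Cpe -0.073 and Pitx1 0.083, and with the cortex covariate Slc5a1 -0.35, Guca2b -0.014 and Egr1 0.015. After a second quantile normalization they were Slc5a1 -0.13, Guca2b -0.067 and Reg1 -0.020, and with array weights Slc5a1 -0.00095. Over the fits with 1 array left out Egr1 ranged between -0.25 and 0.076, Guca2b ranged between -0.074 and 0.30, Reg1 ranged between -0.020 and 0.18 and Slc5a1 ranged between -0.073 and 0.13.

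With 3 arrays a group the precision is limited, and differences of genes near the negative controls are not exact. No paired analysis was possible because the animals are numbered 1 to 12 and no number occurs in more than 1 group.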

Other observations

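Several gene groups outside the comparisons above had single members called. Over all genes 2.6% were called higher and 5.15% lower after insulin. Of 17 circadian clock genes 3 were called higher in germ-free insulin arrays and 1 lower, at a median of 0.03. Nfil3, a repressor in the clock's second loop, was higher after insulin (1.23 ± 0.23) and after saline (1.53). Bhlhe40, which represses clock genes, was lower after insulin (-0.80 ± 0.20) and had 0.06 after saline. Ciart, another repressor, was called at 0.75 ± 0.21 but kept its call in 2 of the 12 fits with 1 array left out.

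Of 17 genes of ER stress and ATF4 targets 3 were called higher and 1 lower (median 0.06). Psat1, of serine synthesis, and Dnajb9, an ER chaperone, were higher by 1.01 ± 0.26 and 0.60 ± 0.15, and Sdf2l1, another ER chaperone partner, was lower (-0.91 ± 0.16). Over the 12 fits with 1 array left out Psat1 kept its call in 4 and Dnajb9 in 8. Of 3 RNA editing enzymes Adarb1 was higher and Adar lower (-0.64 ± 0.15). Tiparp, a target of the aryl hydrocarbon receptor, was higher by 1.25 ± 0.30, the 1 of 8 genes of that pathway called. Sgk1, a kinase gene that glucocorticoids induce, was higher by 0.52 ± 0.10.

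Markers of vessels and stroma had 1 lower call each among 10 endothelial, 8 smooth muscle and pericyte and 9 fibroblast genes. These were Plvap (-0.92 ± 0.20), a protein of fenestrated capillaries, Rgs5 (-0.95 ± 0.20), a pericyte marker, and Col6a1 (-0.79 ± 0.18), a collagen. Of 9 Schwann and sustentacular cell markers none was called after insulin (2 at an unadjusted p under 0.05 by limma, median -0.19), against 4 lower after saline (median -0.92). Over all genes 4.09% were called lower after saline.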
